A study of Mus musculus with 2 samples.

Results

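Chemokines are small secreted proteins that guide the movement of leukocytes, and lymphocytes make some of them as well as follow them. The 8 chemokine genes Ccl1, Ccl3, Ccl4, Ccl5, Ccl22, Cxcl2, Cxcl10 and Xcl1 were taken by name from the 32285 genes of a single-cell RNA-seq table of mouse colon leukocytes. They are described in each of the 17 cell clusters that the authors deposited, numbered 0 to 16, and in each of the 2 libraries. One library came from 5XFAD mice, a transgenic line in which the Thy1 promoter drives human genes with familial Alzheimer disease mutations in neurons, and the other came from wild-type (WT) littermates. All mice were females aged 9 months, and each library held sorted live CD45+ colon cells, that is leukocytes, of 3 pooled mice. The human transgenes are not among the mouse genes counted, so the genotype labels were not checked against them. Pooling leaves 1 library per genotype, so no difference between 5XFAD and WT has a replicate check and no test between genotypes was made.

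Chemokines are grouped by the spacing of their first cysteines into CC, CXC and XC types, and each binds G protein-coupled receptors on the cells it attracts. Ccl3, Ccl4 and Ccl5 attract T cells and monocytes and are made by activated T cells, NK cells, B cells and macrophages, while Xcl1 calls in the dendritic cells that carry Xcr1. Ccl1 acts through Ccr8 and Ccl22 through Ccr4, receptors found on regulatory and type 2 T cells. Cxcl2 draws in neutrophils through Cxcr2, and Cxcl10, an interferon-induced gene, draws in effector T cells through Cxcr3.

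Each library held 3443 cells, with 18604847 UMIs (unique molecular identifiers, each standing for 1 captured RNA molecule) in 5XFAD and 17939499 in WT. The median was 5209 UMIs per cell in 5XFAD and 4938 in WT, and 3 cell barcodes occurred in both libraries. Ptprc, which encodes CD45, had a UMI in 91.3% of 5XFAD cells and 97.4% of WT cells. By marker genes, clusters 0 to 7 were B cell-like, cluster 8 was regulatory T cell-like, cluster 9 was ILC2-like (group 2 innate lymphoid cells), and clusters 10, 11 and 14 were T cell-like. Cluster 12 was NK or ILC1-like, cluster 13 gamma delta T cell-like and cluster 16 ILC3-like. Cluster 15 was left unnamed: it was led by Lyz2, Il1b, Ccl21a, Car1 and C1qb, and its 69 cells held 42 with mostly macrophage or monocyte markers, 14 with stromal or endothelial and 7 with epithelial markers. Ptprc was detected in 50% of its 5XFAD cells, the lowest share of any cluster in that library. The libraries also differ at the upper end of genes per cell, where 0 cells of 5XFAD and 106 cells of WT had 2500 genes or more.

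The name "lymphocyte chemokine" held for most of the set. Outside cluster 15 lay 100% of the 612 Ccl1 UMIs, 99.9% of 16346 for Ccl5, 89.1% of 3110 for Ccl4, 76.3% of 860 for Ccl3, 91.7% of 1428 for Cxcl10 and all but 1 of the 3891 Xcl1 UMIs. The name did not hold for Cxcl2, with 40.3% of 2347 UMIs outside cluster 15, nor for Ccl22, with 4 of 14. In cluster 15 the Cxcl2 UMIs lay mostly in the cells with macrophage or monocyte markers, which held 1204 of 1401.

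The start regions of the genes are shown because the sets of cells that made each chemokine differed so much. On the GRCm38 assembly with GENCODE annotation, Ccl5 (chr11:83525778-83530518, minus strand), Ccl3 (chr11:83647844-83649355, minus) and Ccl4 (chr11:83662584-83664683, plus) lie close together, with 13.2 kb between Ccl3 and Ccl4 and 117 kb between Ccl5 and Ccl3. Ccl1 lies on the same chromosome (chr11:82176657-82305690, minus), where its principal transcript spans 3156 bases at the low end. Cxcl2 (chr5:90903871-90905938, plus) and Cxcl10 (chr5:92346638-92348889, minus) are on chromosome 5, Ccl22 is at chr8:94745590-94751699 (plus) and Xcl1 at chr1:164931644-164935527 (minus). Art3 overlaps Cxcl10 and Gm20743 overlaps Xcl1, each on the other strand and each with 5 UMIs in all cells. RefSeq (GRCm38.p6) gave the region before the start of 6 of the 8 genes, of which 3 are printed here as the 250 bases before the start on the gene's own strand, at chr5:92348890-92349139 for Cxcl10, chr5:90903649-90903898 for Cxcl2 and chr11:82179813-82180062 for Ccl1. Capitals mark matches to an NF-kB motif (GGGA and CC with any 4 bases between) and an interferon response element (GAAA and GAAA with any 2 bases between), searched on both strands, with overlapping matches joined.
Cxcl10: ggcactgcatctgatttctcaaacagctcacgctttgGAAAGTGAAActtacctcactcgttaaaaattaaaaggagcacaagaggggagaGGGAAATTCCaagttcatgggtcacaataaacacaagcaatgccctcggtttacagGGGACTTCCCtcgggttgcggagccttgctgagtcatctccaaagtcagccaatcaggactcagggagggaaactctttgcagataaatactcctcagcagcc
Cxcl2: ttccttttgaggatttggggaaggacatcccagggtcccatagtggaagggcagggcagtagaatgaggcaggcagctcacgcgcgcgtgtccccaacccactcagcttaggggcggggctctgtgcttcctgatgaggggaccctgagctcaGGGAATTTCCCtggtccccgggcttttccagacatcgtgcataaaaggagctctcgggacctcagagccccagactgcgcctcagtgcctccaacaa
Ccl1: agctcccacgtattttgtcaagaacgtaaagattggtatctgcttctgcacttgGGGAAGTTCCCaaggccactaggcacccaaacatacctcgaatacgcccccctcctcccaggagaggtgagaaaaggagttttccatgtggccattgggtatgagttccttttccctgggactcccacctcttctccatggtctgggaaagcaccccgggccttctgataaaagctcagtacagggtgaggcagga
Cxcl10 carried an interferon response element, whose match begins 213 bases before the start, and NF-kB matches beginning 159 and 103 bases before it. Cxcl2 had overlapping NF-kB matches on both strands from 97 bases before the start, and Ccl1 had them from 196 bases before it. Ccl22 had 1 NF-kB match and Ccl3 and Xcl1 had a match to neither motif in this window. Among 32851 RefSeq start regions of 300 bases, 20.7% held the NF-kB motif and 3.44% the interferon response element. A match says only that these letters are present.

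Levels are given as CPM, the UMIs of the gene per 1000000 UMIs of the same cluster and library, with exact 95% Poisson intervals in the plot of levels; intervals throughout cover counting error only. The clusters were made from the expression of these same cells, and Ccl1 is among the 10 leading genes of cluster 9, Ccl5 and Cxcl10 of cluster 10, Ccl5 of cluster 11, Xcl1 and Ccl4 of cluster 12 and Cxcl2 of cluster 15, so levels by cluster are a description. In cluster 12, 99 of 102 5XFAD cells and 86 of 88 WT cells had a UMI of at least 1 of the 8 genes, and 69 of the 5XFAD and 57 of the WT cells had UMIs of 3 or more of these genes. In cluster 11 it was 107 of 111 5XFAD cells and all 84 WT cells, and in cluster 10 it was 90 of 119 in 5XFAD and 79 of 107 in WT. The ILC2-like cluster 9 had 69 of 129 such cells in 5XFAD and 68 of 108 in WT, and the gamma delta T cell-like cluster 13 had 35 of 76 in 5XFAD and 15 of 49 in WT. In B cell-like clusters 0 to 6 the share ran between 3.48% and 10.1% in 5XFAD and between 8.10% and 14% in WT, and in cluster 7, the B cell-like cluster with the immediate early genes Egr1 to Egr3 and Myc among its leading genes, it was 26.2% in 5XFAD and 23.8% in WT.

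**Figure D1:**
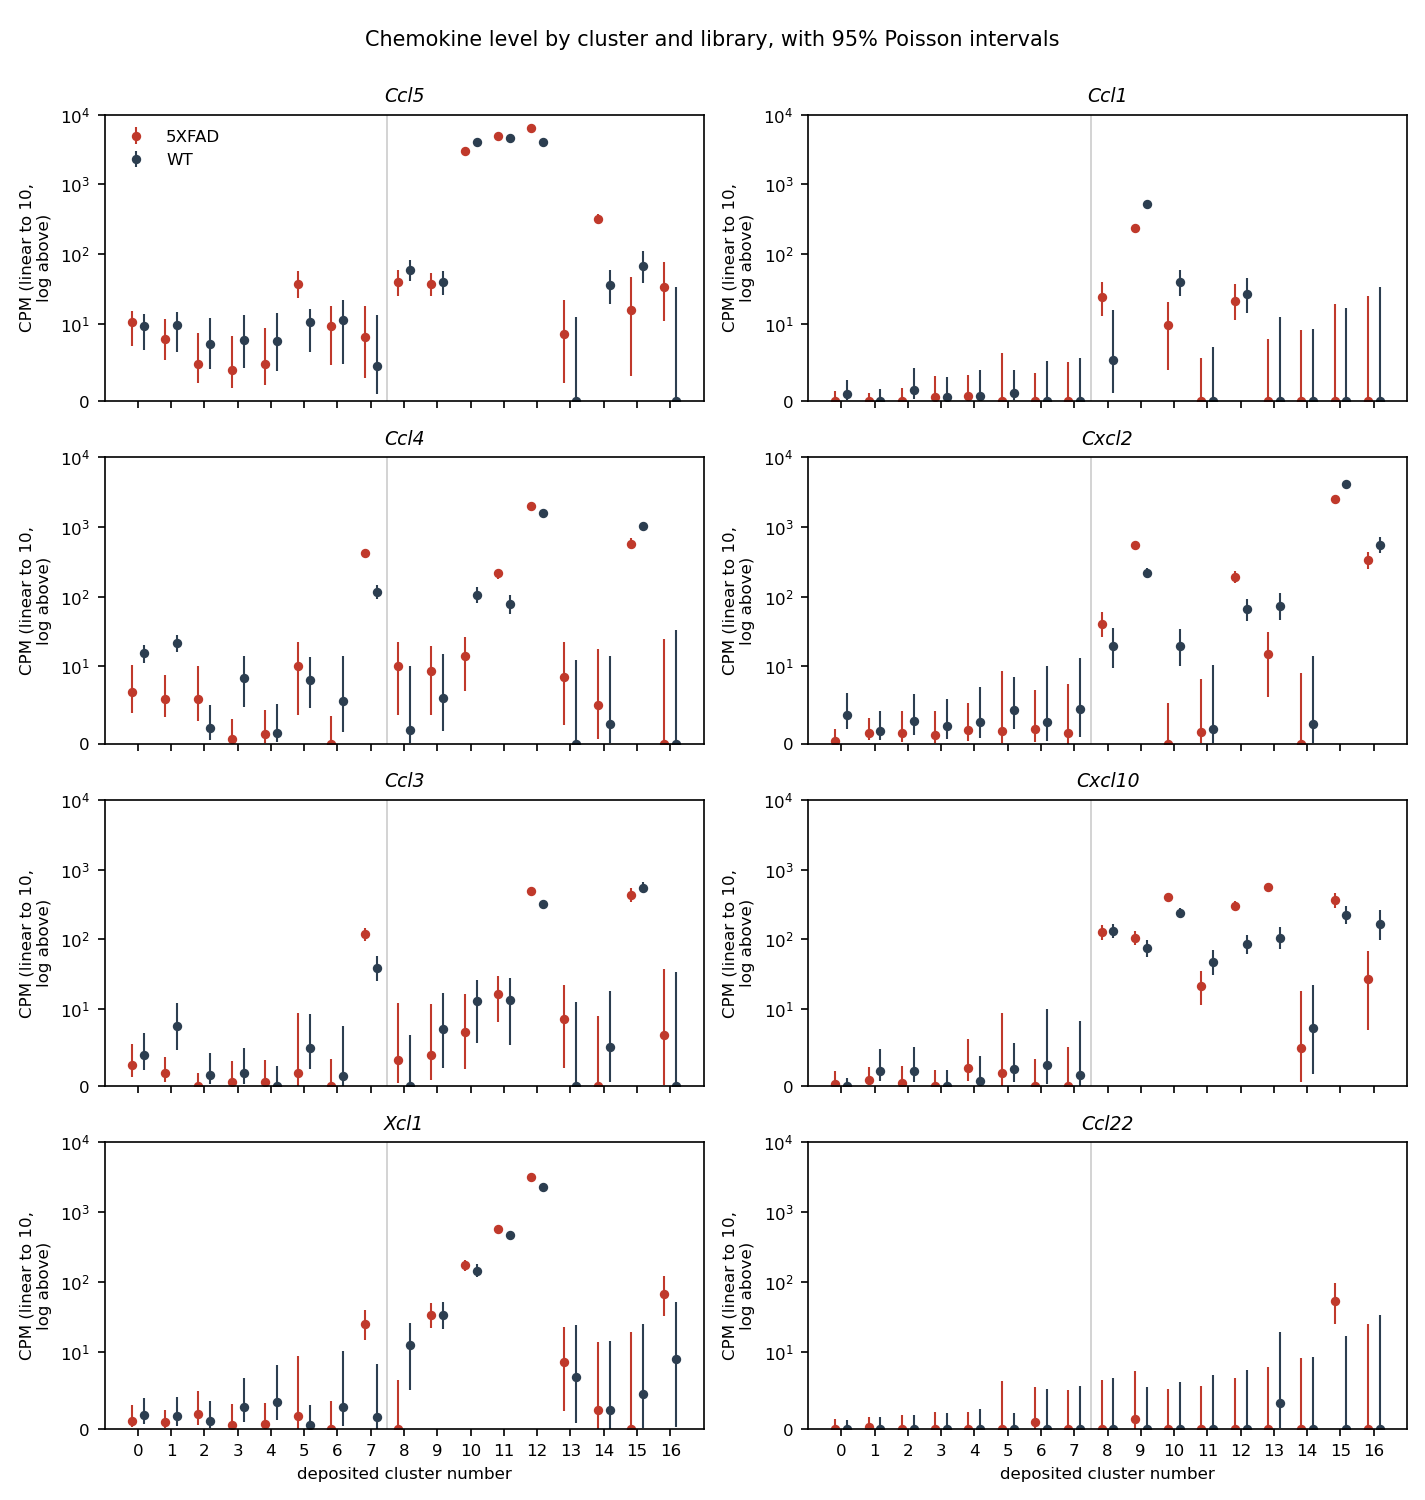
Level of each chemokine gene in each deposited cluster, 5XFAD (red) left of WT (dark blue); the vertical axis is CPM, linear up to 10 and logarithmic above, bars are exact 95% Poisson intervals and the grey line separates B cell-like clusters 0 to 7 from the rest. Xcl1 and Ccl4 peak in cluster 12, Ccl1 in cluster 9 and Cxcl2 in cluster 15. Ccl5 peaks in cluster 12 in 5XFAD but in cluster 11 in WT. Cxcl10 is spread over clusters 8 to 10, 12, 13 and 15.

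As a level that free RNA could give, the shares of cells with a UMI in B cell-like clusters 0 to 4 were taken, where the median depth was 5111 UMIs in 5XFAD and 4862 in WT and 5559 in 5XFAD and 5764 in WT for clusters 8 to 16. Of those B cells, 2.76% had a Ccl5 UMI in the 5XFAD library and 4.11% in the WT library, with a mean of 1.34 UMIs per positive cell in 5XFAD and 1.08 in WT. In the 5XFAD library the shares were 1.16% for Ccl4, 0.401% for Ccl3, 0.535% for Xcl1, 0.624% for Cxcl2, 0.401% for Cxcl10 and 0.0891% for Ccl1. In the WT library they were 2.05% for Ccl4, 0.840% for Ccl3, 0.980% for Xcl1, 1.31% for Cxcl2, 0.467% for Cxcl10 and 0.373% for Ccl1. For each of these 7 genes the WT share was the higher. Shares at or below these are read as background.

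A ratio of 5XFAD over WT was computed for each member in each cluster with at least 50 of its UMIs over both libraries, which gave 32 pairs of gene and cluster, 0 of them for Ccl22. Of these, 8 were past 2-fold higher in 5XFAD and 4 past 2-fold lower, or 25.0% and 12.5% of the pairs. Over all 65341 pairs of any gene and cluster, 1.39% were past 2-fold higher and 3.11% past 2-fold lower, and single clusters had 0.813% to 7.19% higher and 1.37% to 12.3% lower, with both maxima in cluster 15. The median log2 ratio was 0.26 over the 32 pairs and -0.06 over all pairs, with 19 of the 32 and 44.7% of all pairs above 0. This lean depended on the minimum of UMIs: the median was -0.02 over the 45 pairs with at least 20 UMIs and -0.24 over the 87 pairs with at least 1 UMI in each library, where 22 and 36 pairs were above 0. The 8 higher pairs were Cxcl10 in clusters 12 and 13, Cxcl2 in clusters 9 and 12, Ccl3 in cluster 7, Ccl4 in clusters 7 and 11, and Ccl5 in cluster 14. The 4 lower pairs were Ccl4 in clusters 0, 1 and 10 and Ccl1 in cluster 9. In clusters 0 and 1 Ccl4 was low, and these are among the clusters from which its background share was taken. The genes were chosen with earlier results of these libraries known, and in many of the pairs a few cells carried much of the UMIs.

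**Figure D2:**
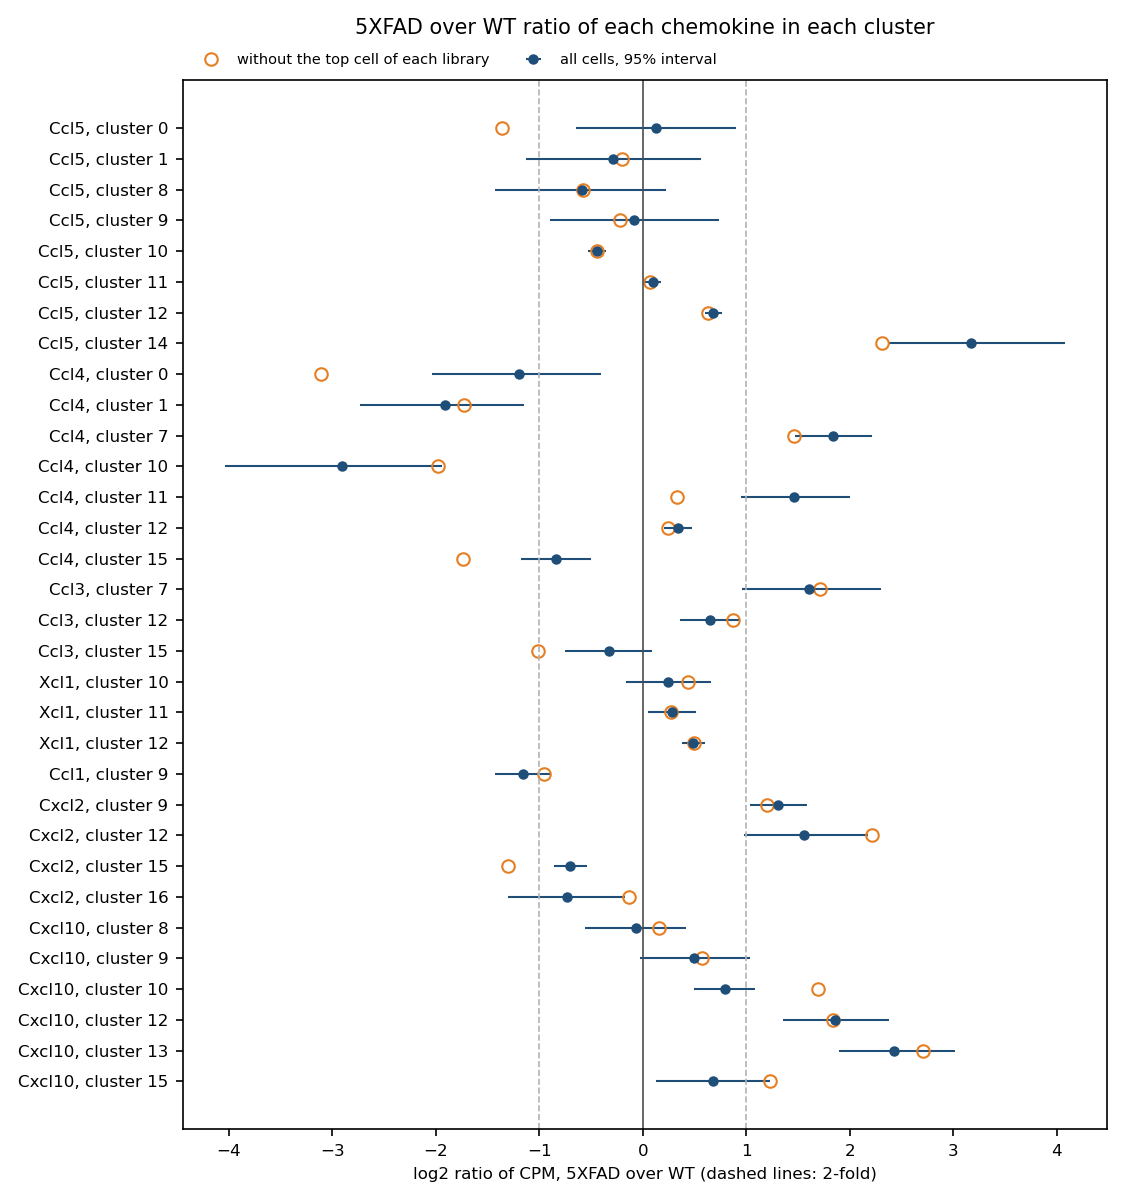
Log2 ratio of CPM, 5XFAD over WT, for each of the 32 gene and cluster pairs; filled points use all cells with exact conditional binomial 95% intervals, open circles leave out the cell with the most UMIs in each library, and dashed lines mark 2-fold. Cxcl10 in cluster 13 is at 2.43 with and 2.70 without the top cells, whereas Ccl4 in cluster 11 drops to 0.33 without them.

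Ccl3 and Ccl4, the macrophage inflammatory proteins, were highest in the NK or ILC1-like cluster 12 and the mixed cluster 15. Over both libraries Ccl4 stood at 1826 CPM in cluster 12, 821 in cluster 15, 274 in cluster 7, 154 in cluster 11 and 56.8 in cluster 10. None of these neighbours overlapped within counting error, which takes no account of UMIs sharing a cell. In clusters 11 and 10, 1 cell held 52.5% and 54.7% of the Ccl4 UMIs. The libraries disagreed on the order of clusters 11 and 10, with 214 and 14.1 CPM in 5XFAD but 77.8 and 106 CPM in WT. Ccl3 had 496 CPM in cluster 15 and 413 in cluster 12, whose intervals overlap, then 80.8 in cluster 7 and 15.1 in cluster 11. Most of both genes' UMIs thus came from innate-type cells and, among B cells, from cluster 7.

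In cluster 12 Ccl4 was at 2022 CPM in 5XFAD against 1600 CPM in WT (log2 ratio 0.34, 0.21 to 0.47), with UMIs in 64 of 102 5XFAD cells and 51 of 88 WT cells. Ccl3 was at 496 CPM in 29 cells of 5XFAD against 317 CPM in 20 cells of WT (0.65, 0.36 to 0.94). Neither passed 2-fold, but the Ccl3 ratio was 1.18 once cells that also held B cell markers were left out. The WT cell with 52 of the 154 Ccl3 UMIs was one of these. The 2 genes met in the same cells. Ccl4 was detected in 44 of 49 Ccl3-positive cells (89.8%, 77.8 to 96.6) and in 71 of 141 Ccl3-negative cells (50.4%, 41.8 to 58.9). In 5XFAD these were 28 of 29 and 36 of 73 cells, and in WT 16 of 20 and 35 of 68.

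Cells of cluster 12 with and without a chemokine UMI were then compared for genes of killing, at medians of 5390 and 5534.5 UMIs per cell in 5XFAD and 5455 and 5557 in WT for Ccl4. Of 10 NK and cytotoxic genes measured, 3 were past 2-fold higher in Ccl4-positive cells and 0 were lower, where 1.27% of all genes were past 2-fold higher and 1.44% lower. Gzmb, a granzyme that triggers death of the target cell, was at 2249 CPM in positive and 1099 CPM in other cells of 5XFAD, and at 1994 and 302 CPM in WT. Perforin (Prf1), which opens the target membrane, was at 620 and 307 CPM in 5XFAD and 508 and 240 CPM in WT. The third, Gzma, was at 1143 and 101 CPM in 5XFAD but at 404 and 230 CPM in WT, and only 14 positive and 3 other cells had any. Interferon gamma (Ifng) was at 457 and 379 CPM in 5XFAD and 588 and 177 CPM in WT, and the receptor gene Klrk1 was at 552 and 725 CPM in 5XFAD and 580 and 823 CPM in WT.

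The same 3 genes were past 2-fold higher in Ccl3-positive cells of cluster 12, where 0.821% of all genes were higher and 1.61% lower. Gzma stood farthest apart, at 2419 CPM in positive and 90.2 CPM in other cells of 5XFAD and at 1356 and 8.10 CPM in WT. Its UMIs were in 12 of the 49 Ccl3-positive cells and in 5 of the 141 others, so they mark a small subset. Of 15 activation genes, 1 was past 2-fold lower and 0 higher in the Ccl3-positive cells: Egr1, an immediate early gene, was at 37.7 and 45.1 CPM in 5XFAD and 25.9 and 119 CPM in WT, and 15 of the 44 UMIs in other WT cells were in 1 cell.

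In B cells, Ccl4 and Ccl3 were concentrated in cluster 7. Ccl4 was at 418 CPM in 5XFAD against 117 CPM in WT there, although slightly fewer cells had a UMI in 5XFAD (15 of 126) than in WT (17 of 126). The UMIs per positive cell had a median of 7 in 5XFAD and 2 in WT. Ccl3 was at 119 CPM in 16 cells of 5XFAD against 39.1 CPM in 10 cells of WT (1.61, 0.96 to 2.30), and its ratio was 1.71 without the top cells. Of the 32 Ccl4-positive cells, 31 had at least 2 UMIs of the B cell markers Cd79a, Cd79b and Ms4a1, and 0 had 2 UMIs of the T cell genes Cd3d, Cd3e and Cd3g. Clusters 12 and 15 were also low in CD3 genes, with Cd3d at 41.2 and 2.43 CPM. The CD3 count therefore does not screen for admixed NK-like or macrophage cells, which was not tested. Ccl4 was found in 12 of 26 Ccl3-positive cells (46.2%, 26.6 to 66.6) against 20 of 226 others (8.85%, 5.49 to 13.3). None of 16 activation genes was past 2-fold apart between Ccl4-positive and other cells of this cluster over both libraries, where 1.23% of all genes were higher and 3.73% lower. Myc, for example, was at 1407 and 842 CPM in 5XFAD and 660 and 580 CPM in WT.

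The other B cell-like clusters had little Ccl4, so their ratios compare low values. Clusters 0 and 1 are themselves among those from which the background shares were taken, so their nearness to that level follows from this choice. In cluster 0 Ccl4 was at 6.68 CPM in 5 of 550 cells of 5XFAD against 15.3 CPM in 15 of 654 cells of WT (-1.19, -2.04 to -0.40). In cluster 1 it was at 5.76 CPM in 11 of 645 cells of 5XFAD and 21.7 CPM in 15 of 471 cells of WT (-1.91, -2.74 to -1.15). In cluster 0, 15 of the 19 UMIs of 5XFAD lay in 1 cell, and without the top cells the ratio was -3.11. Clusters 0 to 6 together had a Ccl4 UMI in 30 of 2530 5XFAD cells (1.19%, 0.801 to 1.69) against 53 of 2652 WT cells (2.0%, 1.5 to 2.61). In WT cells of clusters 0 to 4, Ccl4 had a mean of 2.80 UMIs per positive cell and 18 in the top cell. Ccl5 had 1.08 and 3 there. In 5XFAD these were 2.08 and 15 for Ccl4 and 1.34 and 20 for Ccl5. The background shares above were also higher in WT for each of 7 members, and the part of background RNA in these ratios was not tested.

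In T cell-like clusters 11 and 10 single cells held over 50% of the Ccl4 UMIs. Cluster 11 had 214 CPM in 5XFAD against 77.8 CPM in WT (1.46), where 96 of the 142 UMIs of 5XFAD were in 1 cell, and the ratio was 0.33 (-0.37 to 1.06) without the top cells. Cluster 10 had 14.1 CPM in 5XFAD against 106 CPM in WT (-2.91), where 41 of the 65 UMIs of WT were in 1 cell, and the ratio was still -1.98 without them. Cells with a UMI numbered 8 of 111 in 5XFAD and 11 of 84 in WT in cluster 11, and 7 of 119 in 5XFAD and 9 of 107 in WT in cluster 10.

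**Figure D3:**
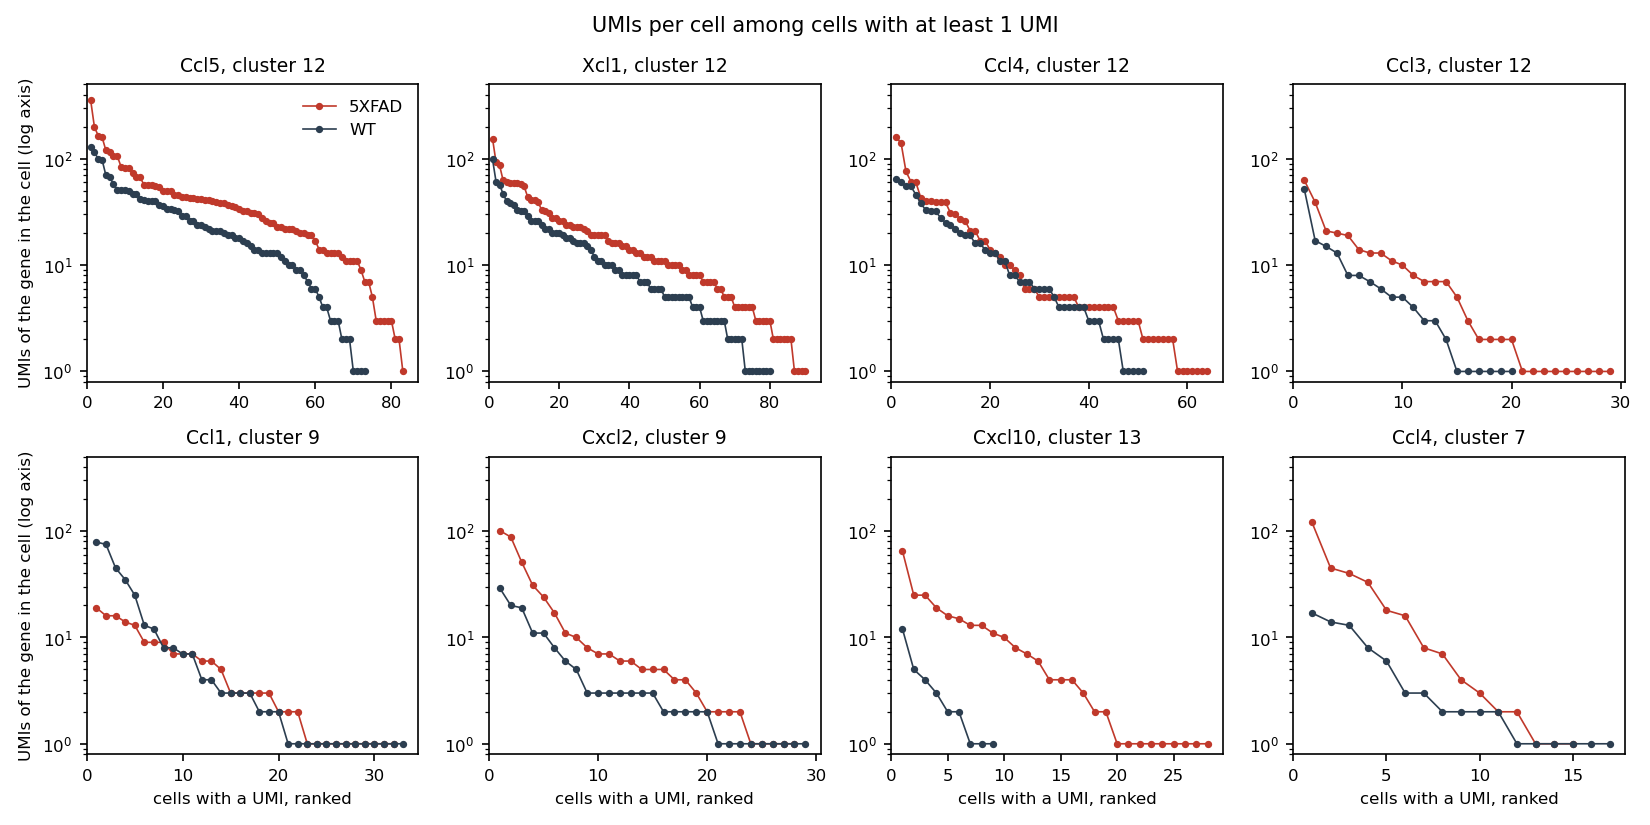
UMIs per cell (log axis) of a chemokine gene in each cell with at least 1 UMI, ranked from the highest, in 5XFAD (red) and WT (dark blue), for 8 gene and cluster pairs. Ccl5 and Xcl1 in cluster 12 fall off gradually over most cells, while Ccl4 in cluster 7 begins with a 5XFAD cell of 121 UMIs and Ccl1 in cluster 9 with WT cells of 79 and 75 UMIs.

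Ccl5, also known as RANTES and stored by memory and cytotoxic T cells, was held almost wholly by clusters 12 (5341 CPM over both libraries), 11 (4719) and 10 (3508), whose intervals do not overlap. The next levels were 178 CPM in cluster 14 and 48.9 in cluster 8, and every B cell-like cluster was at 17 CPM or less. In cluster 12 it was at 6477 CPM in 83 of 102 cells of 5XFAD against 4037 CPM in 73 of 88 cells of WT (0.68, 0.60 to 0.76). In cluster 11 it was at 4856 CPM in 101 of 111 5XFAD cells and 4546 CPM in 83 of 84 WT cells (0.10, 0.02 to 0.17), and in cluster 10 at 3005 CPM in 77 of 119 5XFAD cells and 4089 CPM in 62 of 107 WT cells (-0.44, -0.53 to -0.36). The order over both libraries was thus that of 5XFAD, while in WT cluster 11 was highest and cluster 12 lowest of the 3. None of the 3 ratios passed 2-fold, and the shares of positive cells overlapped within counting error in clusters 10, 11 and 12. The number of UMIs per positive cell was high: 35.8 in cluster 12, rank 6 of 2923 genes in that cluster, with a median of 1.48 over those genes.

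Some smaller pools of Ccl5 rested on few cells. In the T cell-like cluster 14 it was at 317 CPM in 5XFAD against 35.3 CPM in WT (3.17, 2.37 to 4.08), with UMIs in 5 of 60 5XFAD cells and 5 of 61 WT cells. Of the 128 UMIs of 5XFAD, 98 were in 1 cell, and the ratio was 2.31 without the top cells. In the B cell-like cluster 0, Ccl5 was at 10.5 CPM in 5XFAD against 9.67 CPM in WT (0.13), but 20 of the 30 UMIs of 5XFAD were in 1 cell that also held T cell CD3 UMIs. Without the top cells the ratio there was -1.36, so the 5XFAD value of cluster 0 followed 1 cell. Other B cell values near background were spread over cells. The 31 UMIs of WT in cluster 0 lay in 30 cells. In cluster 1, 28 UMIs of 5XFAD lay in 26 cells and 24 of WT in 19 cells.

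Within cluster 10, a T cell-like cluster, Ccl5 went with genes of cytotoxic T cells. The comparison set 77 Ccl5-positive against 42 other cells in 5XFAD and 62 against 45 in WT, with medians of 6103 and 5771.5 UMIs per cell in 5XFAD and 5397.5 and 5859 in WT. Of 7 cytotoxic genes measured, 6 were past 2-fold higher in the positive cells over both libraries and 0 lower, where 2.25% of all genes were higher and 2.37% lower. The CD8 co-receptor gene Cd8a had 35 UMIs in 11 positive cells and 0 in other cells of 5XFAD, and 58 UMIs in 18 positive cells and 0 in other cells of WT. Set against a floor of 3 UMIs for all other cells together, this is at least 20.01-fold higher over both libraries, and for Cd8b1, the other CD8 chain, at least 25.4-fold. Cd4, the co-receptor of helper T cells, was at 113 CPM in positive and 158 CPM in other cells of 5XFAD and at 165 and 173 CPM in WT. Both co-receptors thus occurred among the Ccl5-positive cells, while no CD8 UMI was seen in cells without Ccl5.

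Nkg7, a granule protein of cytotoxic cells, was at 602 CPM in Ccl5-positive and 175 CPM in other cells of 5XFAD, and at 861 and 147 CPM in WT. Interferon gamma was at 318 and 32.5 CPM in 5XFAD and at 197 and 36.8 CPM in WT. Klrd1, which encodes the CD94 chain of an NK receptor, was at 99.6 and 8.13 CPM in 5XFAD and at 94.0 and 7.36 CPM in WT. These 3 genes stood the same way in both libraries. Granzymes did not: Gzmb was at 93.1 and 77.2 CPM in 5XFAD and at 247 and 0 CPM in WT, and Gzma had 2 UMIs in 5XFAD positive cells against 236 UMIs in 10 positive cells of WT. Of 16 activation genes only Ifng was past 2-fold apart.

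Members other than Ccl5 followed it in cluster 10 to different degrees. Xcl1 had a UMI in 47 of 139 Ccl5-positive cells (33.8%, 26.0 to 42.3) and in 6 of 87 other cells (6.90%, 2.57 to 14.4), with 30 of 77 and 3 of 42 cells in 5XFAD and 17 of 62 and 3 of 45 in WT. Cxcl10 had a UMI in 24 of the 139 (17.3%, 11.4 to 24.6) and 18 of the 87 (20.7%, 12.7 to 30.7). Ccl5 and Xcl1 therefore overlapped in cells beyond counting error and Ccl5 and Cxcl10 did not. In cluster 11 nearly every cell held Ccl5, which leaves 11 cells without it, too few to compare.

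In cluster 12, Ccl5 and Xcl1 were found more often in cells with Ccl4 than in cells without it. Ccl5 was detected in 111 of 115 Ccl4-positive cells (96.5%, 91.3 to 99.0) and in 45 of 75 others (60.0%, 48.0 to 71.1). Xcl1 was detected in 110 of the 115 (95.7%, 90.1 to 98.6) and 60 of the 75 (80.0%, 69.2 to 88.4). Cxcl10 had a UMI in 5XFAD in 11 of 64 Ccl4-positive cells (17.2%, 8.90 to 28.7) and 17 of 38 others (44.7%, 28.6 to 61.7), and in WT in 10 of 51 Ccl4-positive cells (19.6%, 9.82 to 33.1) and 5 of 37 others (13.5%, 4.54 to 28.8). The intervals for Cxcl10 overlap in WT but barely touch in 5XFAD, where the upper limit was 28.68% and the lower limit 28.62%. Overlap of intervals is not a test, and the difference was not tested. Its shares lie in opposite orders in the 2 libraries.

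Xcl1, lymphotactin, was the member most tied to cluster 12, which held 75.0% of its UMIs. Over both libraries it stood at 2794 CPM there, 529 in cluster 11, 160 in cluster 10, 42.3 in cluster 16 and 33.6 in cluster 9, where only the last 2 overlap within counting error. In cluster 12 it was at 3226 CPM in 90 of 102 cells of 5XFAD against 2299 CPM in 80 of 88 cells of WT (0.49, 0.38 to 0.60). It was at 574 CPM in 65 of 111 5XFAD cells and 472 CPM in 52 of 84 WT cells of cluster 11 (0.28, 0.05 to 0.52). In cluster 10 it was at 172 CPM in 33 of 119 5XFAD cells and 145 CPM in 20 of 107 WT cells (0.24, -0.16 to 0.66). All 3 ratios were above 0 but short of 2-fold, and the last interval includes 0. Like Ccl5 it was carried by many cells, with 5.31% of the UMIs of cluster 12 in the top cell.

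Cells of cluster 11 with an Xcl1 UMI numbered 65 of 111 in 5XFAD and 52 of 84 in WT, at medians of 6028 UMIs in positive and 6052.5 in other cells of 5XFAD and 6262 and 5556 in WT. Of 7 cytotoxic genes, 3 were past 2-fold higher over both libraries and 0 lower, where 1.24% of all genes were higher and 0.96% lower. By library, 4 of 7 were past 2-fold higher in 5XFAD and 0 of 5 in WT, with a median log2 ratio of 1.19 in 5XFAD and 0.05 in WT. Gzmb was at 203 CPM in positive and 86.0 CPM in other cells of 5XFAD and at 73.3 and 32.3 CPM in WT. Cd160, a receptor of intraepithelial T cells and NK cells, was at 213 and 89.7 CPM in 5XFAD and at 205 and 108 CPM in WT. The third, Gzma, rested on 1 cell of 5XFAD with 99 of its 104 UMIs. Of 14 activation genes 1 was past 2-fold higher, namely Jun, an AP-1 subunit, at 408 and 187 CPM in 5XFAD and at 486 and 264 CPM in WT.

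Ccl1, a ligand of Ccr8, was nearly confined to the ILC2-like cluster 9, which held 86.1% of its UMIs at 369 CPM over both libraries. The next levels were 23.9 CPM in cluster 12, 23.5 in cluster 10 and 14.9 in cluster 8, whose intervals overlap. In cluster 9 it was at 233 CPM in 32 of 129 cells of 5XFAD against 519 CPM in 33 of 108 cells of WT (-1.16, -1.43 to -0.89). The share of positive cells was 24.8% (17.6 to 33.2) in 5XFAD and 30.6% (22.1 to 40.2) in WT, and the intervals overlap. What differed was the upper end: the 5 highest cells had 19, 16, 16, 14 and 13 UMIs in 5XFAD and 79, 75, 45, 35 and 25 in WT, while the median per positive cell was 3 in both. With the highest cell of both libraries left out the ratio was -0.96, short of 2-fold. In cluster 10, 21 of the 24 WT UMIs were in 1 cell.

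Ccl1-positive and other cells of cluster 9 were compared at medians of 6284 UMIs in positive and 5449 in other cells of 5XFAD and 6347 and 6229 in WT. The T cell CD3 genes were at 104 CPM in positive and 209 in other cells of 5XFAD and at 41.8 and 265 in WT. The part of this difference in the values below was not tested. Of 7 ILC2 markers, 0 were past 2-fold higher and 1 was lower, where 0.58% of all genes were higher and 2.06% lower. The lower one was Il13, a type 2 cytokine, at 119 CPM in positive and 326 CPM in other cells of 5XFAD and at 153 and 256 CPM in WT. Il5, the eosinophil growth factor, was at 590 and 711 CPM in 5XFAD and at 1142 and 631 CPM in WT, so its order differed between libraries. Of 18 activation genes 1 was lower, the surface protein gene Cd83, and Csf2, which encodes the cytokine GM-CSF, was at 1289 and 559 CPM in 5XFAD and at 260 and 207 CPM in WT.

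Cxcl2, the neutrophil attractant, had 2 main places. Over both libraries it stood at 3404 CPM in cluster 15, which held 59.7% of its UMIs, then at 427 CPM in the ILC3-like cluster 16 and 389 CPM in the ILC2-like cluster 9, whose intervals overlap, and at 134 CPM in cluster 12. In cluster 9 it was at 543 CPM in 28 of 129 cells of 5XFAD against 219 CPM in 29 of 108 cells of WT (1.31, 1.03 to 1.59). The share of positive cells was not higher in 5XFAD, at 21.7% (14.9 to 29.8) against 26.9% (18.8 to 36.2) in WT. The highest cells had 101, 88, 51 and 31 UMIs in 5XFAD and 29, 20, 19 and 11 in WT. The cell with 88 also held B cell markers, and without such mixed cells the ratio was 1.05.

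Single cells set the Cxcl2 values in clusters 12 and 16. In cluster 12 it was at 193 CPM in 5XFAD against 65.8 CPM in WT (1.56, 0.97 to 2.17), from 4 5XFAD cells and 6 WT cells, with 76 of 108 UMIs of 5XFAD and 26 of 32 UMIs of WT in 1 cell each. In cluster 16 it was at 333 CPM in 4 of 25 cells of 5XFAD against 555 CPM in 2 of 17 cells of WT (-0.74, -1.31 to -0.17), with 50 of the 61 WT UMIs in 1 cell. In cluster 15 it was at 2549 CPM in 14 of 32 cells of 5XFAD against 4142 CPM in 20 of 37 cells of WT (-0.70, -0.86 to -0.54), and 229 of the 486 UMIs of 5XFAD were in 1 cell. Without the top cells the ratio was 2.22 in cluster 12, -0.13 in cluster 16 and -1.31 in cluster 15. In cluster 15 the 16 5XFAD cells with mostly macrophage or monocyte markers held 447 Cxcl2 UMIs, and the 26 such WT cells held 757. Another 155 were in 1 WT cell with mostly neutrophil markers. Over all cells, Cxcl2 thus stood higher in 5XFAD in the ILC2-like cluster and lower in the macrophage-containing one. The part of cell make-up in the latter and the difference between clusters were not tested.

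Cxcl2-positive cells of cluster 9 had more of some ILC2 products than the other cells. Medians were 5711.5 UMIs in positive and 5510 in other cells of 5XFAD and 6992 and 5931 in WT. The other cells held more of the T cell CD3 genes, at 47.9 CPM in positive and 219 in other cells of 5XFAD and 137 and 219 in WT. The part of such cells in the differences below was not tested. Of 7 ILC2 markers, 2 were past 2-fold higher over both libraries and 0 lower, where 1.13% of all genes were higher and 2.45% lower. Il5 was at 1933 CPM in positive and 317 CPM in other cells of 5XFAD and at 1111 and 656 CPM in WT, where the ratio was short of 2-fold. Hs3st1, a heparan sulfate sulfotransferase, was at 1233 and 326 CPM in 5XFAD and at 846 and 400 CPM in WT. Il1rl1, the IL-33 receptor, was at 437 and 183 CPM in 5XFAD and at 347 and 217 CPM in WT, and Areg, an epithelial growth factor, at 1370 and 805 CPM in 5XFAD and at 1194 and 745 CPM in WT. All 4 genes had the higher level in the positive cells of both libraries.

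Of 18 activation genes, 2 were past 2-fold lower in the Cxcl2-positive cells, namely Ifng and the AP-1 family gene Batf, with Batf at 29.9 and 60.3 CPM in 5XFAD and at 24.5 and 50.5 CPM in WT. Ccl1 and Cxcl2, the chemokines of this cluster, were not linked within it. Cxcl2 was detected in 18 of 65 Ccl1-positive cells (27.7%, 17.3 to 40.2) and in 39 of 172 others (22.7%, 16.6 to 29.7).

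**Figure D4:**
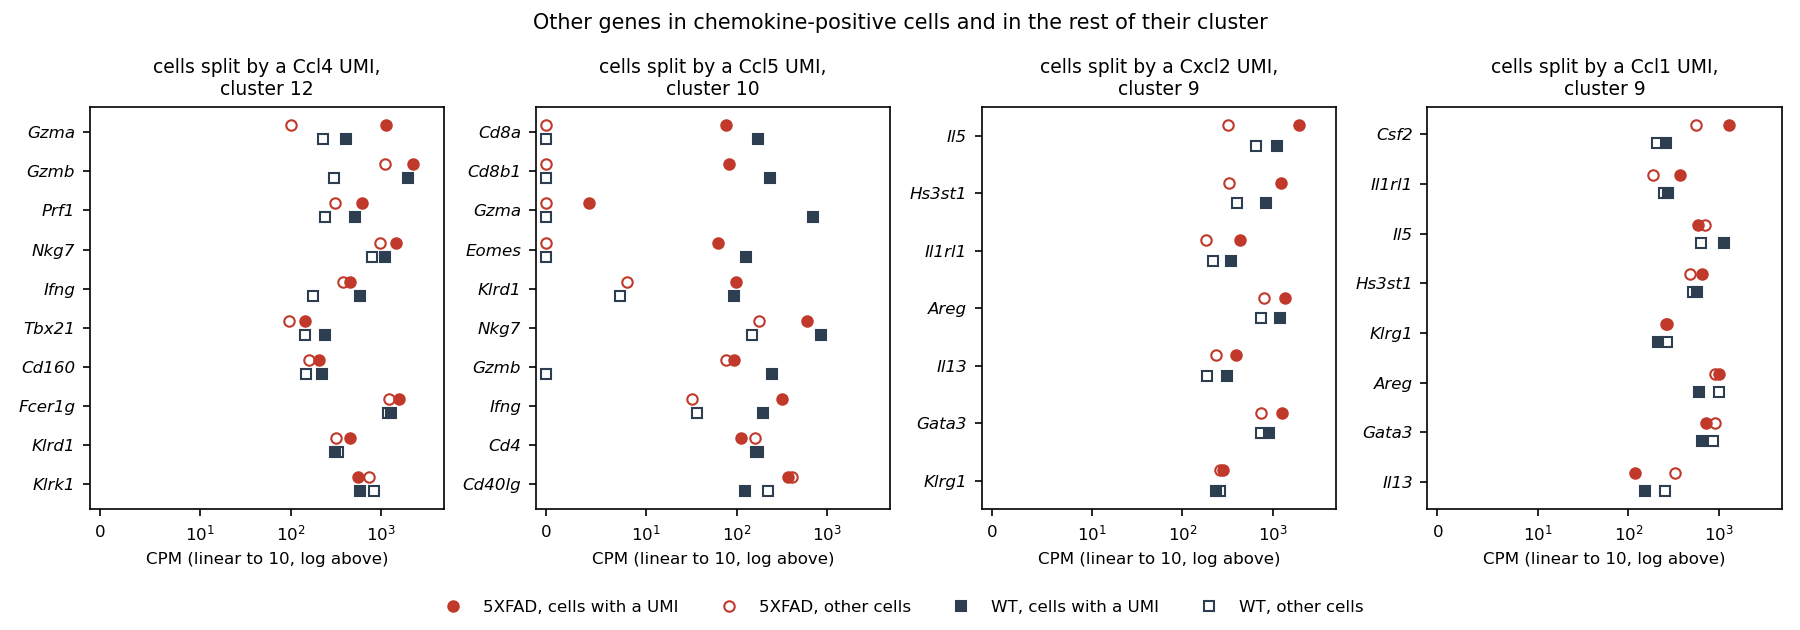
Level of the listed genes in chemokine-positive cells (filled) and the other cells (open) of the same cluster, 5XFAD (red circles) above WT (dark blue squares) in each row; the horizontal axis is CPM, linear to 10 and logarithmic above. Cells with Ccl5 in cluster 10 have Cd8a at 75.8 CPM in 5XFAD against 170 CPM in WT, against 0 in the other cells, and Il13 in cluster 9 is at 119 CPM in Ccl1-positive and 326 CPM in other cells of 5XFAD, against 153 and 256 CPM in WT.

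Cxcl10, the interferon-induced ligand of Cxcr3, was the most widely spread member among lymphocytes. Over both libraries it stood at 386 CPM in the gamma delta T cell-like cluster 13, 330 in cluster 10 and 289 in cluster 15, each overlapping its neighbour in that order, then 202 in cluster 12, 129 in cluster 8, 91.1 in cluster 9 and 84.7 in cluster 16. In cluster 13 it was at 566 CPM in 28 of 76 cells of 5XFAD against 105 CPM in 9 of 49 cells of WT (2.43, 1.89 to 3.02). The share of positive cells was 36.8% (26.1 to 48.7) in 5XFAD and 18.4% (8.76 to 32.0) in WT, and at an equal depth of 3000 UMIs per cell it was 30.7% in 5XFAD and 17% in WT. The ratio held without the top cells, at 2.70, while the shares overlap within counting error.

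In cluster 12 Cxcl10 was at 305 CPM in 28 of 102 cells of 5XFAD against 84.3 CPM in 15 of 88 cells of WT (1.85, 1.35 to 2.38), and the ratio was 1.26 at equal depth. In cluster 10 it was at 410 CPM in 25 of 119 cells of 5XFAD against 237 CPM in 17 of 107 cells of WT (0.79, 0.50 to 1.09). There 1 cell held 159 of the 290 UMIs of 5XFAD and 1 cell 110 of the 145 UMIs of WT, and without them the ratio was 1.69. Clusters 8 and 9 did not differ beyond counting error, with 126 CPM in 5XFAD against 133 CPM in WT for cluster 8 (-0.07, -0.56 to 0.41) and 106 CPM in 5XFAD and 75.0 CPM in WT for cluster 9 (0.49, -0.03 to 1.03). Cxcl10 was thus past 2-fold higher in 5XFAD in NK or ILC1-like and gamma delta T cell-like cells and level between libraries in regulatory T cell-like cells, a difference between clusters that was not tested.

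Interferon-induced genes were set beside Cxcl10 in 5 clusters, and those with enough UMIs numbered 3 to 5 per cluster. In cluster 13 none was past 2-fold lower in Cxcl10-positive cells, and Isg15 was past 2-fold higher, where 0.687% of all genes were higher and 1.87% lower. Within 5XFAD 1 of 3 genes with at least 50 UMIs was past 2-fold higher, and within WT 0 of 2, with a median log2 ratio of 0.21 in 5XFAD and -0.45 in WT. Isg15, a ubiquitin-like protein of the interferon response, was at 238 CPM in positive and 104 CPM in other cells of 5XFAD and at 181 and 93.8 CPM in WT. In cluster 10, 2 of 5 were higher and 1 lower, against 0.956% and 3.18% of all genes, but the higher ones, Isg15 and Ifit1, came mostly from single cells: 62 of the 73 Isg15 UMIs in positive cells of WT and 34 of the 36 Ifit1 UMIs in those of 5XFAD were in 1 cell each. Irf7, a regulator of the interferon response, was the lower one, at 50.8 and 127 CPM in 5XFAD and at 51.0 and 78.9 CPM in WT.

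In cluster 9, 1 of 3 interferon genes was past 2-fold higher and 0 lower, against 1.1% and 4.28% of all genes. This was Isg15, at 186 CPM in positive and 103 CPM in other cells of 5XFAD and at 218 and 88.5 CPM in WT. In clusters 12 and 8, 0 of 4 and 0 of 3 were past 2-fold in either direction, where 0.582% and 0.771% of all genes were higher and 2.4% and 3.92% lower. Differences between clusters were not tested. In clusters 9, 10 and 13 the positive cells were the deeper ones in both libraries, in cluster 9 with medians of 5906 and 5479.5 UMIs in 5XFAD and 7419 and 6171 in WT, and in cluster 10 of 6406 and 5760 in 5XFAD and 7267 and 5488.5 in WT. In cluster 12 this held in 5XFAD, with medians of 6147 and 5306.5 UMIs, but not in WT, with 5399 and 5618.

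Ccl22, the Ccr4 ligand typical of dendritic cells and macrophages, was nearly absent, with 13 UMIs in 5 cells of 5XFAD and 1 UMI in 1 cell of WT. Of the 13, 10 were in 2 cells of cluster 15. One of these, with 7 UMIs, had mostly dendritic cell markers and the other, with 3, mostly macrophage or monocyte markers. The remaining UMIs were single ones in clusters 1, 6 and 9 of 5XFAD and cluster 13 of WT. At this depth no ratio between the libraries was computed for Ccl22.

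In cluster 15, the cells with macrophage or monocyte markers held most of 3 members: 185 of 204 Ccl3 UMIs, 323 of 338 Ccl4 UMIs and 1204 of 1401 Cxcl2 UMIs. Ccl3 was at 435 CPM in 8 of 32 cells of 5XFAD against 548 CPM in 12 of 37 cells of WT (-0.33, -0.75 to 0.08), and Ccl4 at 577 CPM in 9 5XFAD cells and 1032 CPM in 11 WT cells (-0.84, -1.18 to -0.50). Without the top cells the ratios were past 2-fold lower, at -1.02 for Ccl3 and -1.74 for Ccl4, while at 3000 UMIs per cell that of Ccl3 was 0.10. The macrophage or monocyte cells themselves numbered 16 in 5XFAD and 26 in WT, so their number moved the same way as these levels, and its part in the result was not tested. Ccl4 was detected in 15 of 20 Ccl3-positive cells (75.0%, 50.9 to 91.3) and 5 of 49 others (10.2%, 3.40 to 22.2), as in clusters 7 and 12. Of the Cxcl10 UMIs of this cluster, 45 were in 5 cells with stromal or endothelial markers, all of 5XFAD, and the rest in macrophage or monocyte cells.

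Chemokine UMIs sat in fewer cells than those of most genes. In cluster 7 the top cell held 31.8% of the Ccl4 UMIs, rank 1 among the 3323 genes with enough UMIs there, against a median of 3.66% over those genes. In cluster 11 the top Ccl4 cell held 52.5% (rank 2 of 3229) and in cluster 10 it held 54.7% (rank 3 of 3245), followed by the top Cxcl10 cell with 36.6% (rank 4). The top cell of cluster 12 held 54.3% of the Cxcl2 UMIs (rank 3 of 2923) and 34.1% of the Cxcl10 UMIs (rank 5). Ccl5 behaved differently in clusters 10 and 11, where its top cell held 4.84% and 4.22%, near the medians of 3.77% and 3.93%. Its positive cells there had 33.3 and 30.5 UMIs each. In cluster 12 the top cell held 6.38% of the Ccl5 and 5.31% of the Xcl1 UMIs, against a median of 3.99%. In cluster 9 the top Ccl5 cell held 23.6% (rank 8 of 3106).

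The genes whose levels followed each member most closely over the 17 clusters were found by Pearson's r on log2(CPM + 10) among 8026 genes. These correlations describe the clusters, which share their 2 libraries, and the clusters were themselves built from these cells. Ccl3 and Ccl4 were each other's closest gene (0.95). For Ccl1 they were the cytokine genes Il2 and Il4 (0.94 each) and the IL-25 receptor gene Il17rb (0.91). For Ccl5 they were the IL-12 receptor gene Il12rb2 (0.93), Klrd1 and Epsti1 (0.92 each), and for Xcl1 B3galt5 and the NK receptor genes Klrc2 and Klre1 (0.95 each). For Cxcl2 they were Tubb6 (0.96), Creg1 (0.94) and Uqcr11 (0.92), and for Cxcl10 Rcbtb2 (0.98), S100a6 and Ahnak (0.97 each). With Spearman's rho in place of r, the closest 3 genes shared no gene with these for Ccl1, Ccl5 and Cxcl2.

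Of 29 other chemokine genes, 28 were in the table, and those with the most UMIs lay mainly outside lymphocytes or were spread thin. Ccl21a, a ligand for naive T cells, had 667 UMIs, 97.2% of them in cluster 15 and 433 in 1 cell, and its near-identical gene copies could share reads with it. Cxcl1, like Cxcl2 a ligand of Cxcr2, had 444 UMIs (75.2% in cluster 15) and Pf4 261 (88.1%). Ccl25 had 422 UMIs in 383 cells and Ccl27a 183 in 173, so nearly 1 UMI per cell. Chosen after the values were seen, some less abundant genes had most of their UMIs in a lymphocyte cluster. Cx3cl1, which binds Cx3cr1, had 69.6% of 125 UMIs in the ILC3-like cluster 16. These were 39 UMIs in 16 cells of 5XFAD and 48 in 13 cells of WT. Ccl20, a ligand of Ccr6, had 78.9% of 38 UMIs in cluster 8. Ccl17 had 61.5% of only 13 UMIs in the B cell-like cluster 6.

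Receptors of the chemokines were read in the same cells. Ccr8, the Ccl1 receptor, had 142 UMIs, 71.8% of them in cluster 9, at 91.0 CPM in 49 cells of 5XFAD against 50.02 CPM in 26 cells of WT, so ligand and receptor transcripts lay in the same cluster. Cxcr3, the Cxcl10 receptor, had 335 UMIs and was highest in cluster 10, at 109 CPM in 5XFAD against 88.3 CPM in WT. Ccr4, the Ccl22 receptor, had 312 UMIs and was highest in cluster 8, at 107 CPM in 5XFAD against 124 CPM in WT. Ccr1, which binds Ccl3 and Ccl5, had 276 UMIs and was highest in cluster 15, at 168 CPM in 5XFAD against 122 CPM in WT. The receptors of neutrophils and cross-presenting dendritic cells were nearly absent, with 11 UMIs of Cxcr2, 0 of Cxcr1 and 16 of Xcr1. Ccr3 had 15 UMIs, and the scavenging receptors Ackr1, Ackr2 and Ackr4 had 9, 18 and 2.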

How the data were processed

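Libraries were made from live CD45+ colon cells pooled from 3 mice per genotype, and the deposited library named AD was taken as 5XFAD. Reads were processed with Cell Ranger 6.0.1 on mm10, per the submitters' processing notes; how cells were later filtered and clustered is not stated there or in the file headers. The authors deposited natural log values, ln(1 + count per 10000 UMIs of the cell), a second table of natural log corrected counts (SCT, 14128 genes), and per cell the counts of UMIs and genes, the percent of mitochondrial UMIs, the library and the cluster number. UMI counts were recovered from the first table: 100% of 11758401 nonzero values came out whole within 1e-06, and the sums matched the deposited totals in 6886 of 6886 cells. The file holds no other columns of per-sample values.

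UMIs were summed per cluster and library and divided by the summed UMIs of all genes (CPM). Intervals are 95%: exact Poisson for CPM, exact conditional binomial for log2 ratios and Clopper-Pearson for shares; they cover counting error only. With 1 library per genotype no test across samples was possible, and genes were called by size alone, past 2-fold with at least 50 UMIs. A group at 0 UMIs was set to 3 UMIs over the group. The rule for a cluster name was that at least 3 detected markers stood above the other clusters. Cluster 8 fell short of it, with only Foxp3 and Ctla4 highest there. Il2ra was at 227 CPM in cluster 8 against 402 in cluster 13, and Ikzf2 at 1054 against 1788 in cluster 11. T cell-like clusters 10, 11 and 14 also fell short, since the T cell markers were highest in different clusters. B cell-like clusters 1 to 7 fell short as well, with Cd79a, Cd79b, Ms4a1 and Ebf1 all highest in cluster 0. These names rest on markers shared by the class: Cd79a was at 1680 CPM or more in each of clusters 0 to 7 and 121 or less elsewhere. No doublet caller was run. As an alternative, cells called mixed were left out. In B cell-like clusters these had at least 2 UMIs of the T cell genes Cd3d, Cd3e and Cd3g. They numbered 7 in 5XFAD and 5 in WT. In the other clusters mixed cells had at least 2 UMIs of the B cell markers Cd79a, Cd79b and Ms4a1. They numbered 13 in 5XFAD and 43 in WT, and the unnamed cluster lost no cells. Markers of NK, ILC and macrophage cells were not used in this rule. All 8 members were named in every cluster; other named genes came from fixed lists (the 5 most abundant of the other chemokines, and receptors) or were the 3 of most like pattern among genes with at least 200 UMIs in at least 50 cells. Values of 2 genes of these lists are not reported here. The members and lists were chosen with earlier results of these data known. Calculations used Python 3.11.15 with numpy 2.4.6, scipy 1.17.1, pandas 2.3.3 and matplotlib 3.10.9, and the code was tested on simulated data.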

Additional observations from a re-analysis of the deposited data

Results flagged for a closer look

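Ccl4 moved in opposite directions between clusters under the same contrast of 5XFAD with WT. Its log2 ratio was 1.83 in the B cell-like cluster 7 and 1.46 in the T cell-like cluster 11, against -1.19 and -1.91 in the B cell-like clusters 0 and 1 and -2.91 in the T cell-like cluster 10. Clusters 0 and 1 are among those whose shares of positive cells were taken as background. The difference between clusters was not tested, since each genotype had 1 library. In clusters 11 and 10, 1 cell held 52.5% and 54.7% of the UMIs, and without the top cells the ratios were 0.33 and -1.98.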

How the results depend on the processing

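No paired analysis was possible because each genotype had 1 library, and for the same reason no replicate could be left out. Of the 32 pairs of gene and cluster, 8 were past 2-fold higher and 4 lower in 5XFAD. Without the top cell of each library 9 were higher and 7 lower. At 3000 UMIs per cell, without cells of 2500 genes or more and without mixed cells, 9 were higher and 5 lower in each case. Of 45 pairs with at least 20 UMIs 10 were higher and 9 lower, and of 87 pairs with at least 1 UMI in each library 17 were higher and 21 lower. Both scaling alternatives left the counts at 8 and 4; the offset subtracted from the log2 ratios of a cluster was -0.13 to 0.08 (median of ratios) and -0.18 to -0.01 (TMM), so TMM raised every ratio. No ratio that was past 2-fold changed sign under any alternative run. Among the 32 ratios, those that moved beyond counting error numbered 11 without the top cells, 7 at 3000 UMIs per cell (60 5XFAD and 124 WT cells left out), 2 without cells of 2500 genes or more, 2 without mixed cells, 2 with TMM, 1 in the SCT table and 0 with median of ratios. Of 64 shares of positive cells, 7 moved at equal depth. Averaging the libraries' CPM in place of summing UMIs left the cluster highest in each gene as it was for all 8 genes. An average does not show where the libraries disagree. Ccl3 was highest in cluster 12 in 5XFAD (496 CPM) and in cluster 15 in WT (548). Ccl5 was highest in cluster 12 in 5XFAD (6477) and in cluster 11 in WT (4546). Cxcl10 was highest in cluster 13 in 5XFAD (566) and in cluster 10 in WT (237). The only WT UMI of Ccl22 was in cluster 13. Depth limits Ccl22 most, with 14 UMIs in all.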
